A study of Mus musculus with 13 samples.

Results

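The 10 genes studied here build and dress the lipoproteins of the liver: Apob, the apolipoproteins Apoa1, Apoa2, Apoa4, Apoa5, Apoc1, Apoc2, Apoc3 and Apoe, and Mttp. They were chosen by name from a table of 53465 mouse genes, and all 10 passed the expression filter that left 13545 genes to test. Liver RNA came from 6 WT and 7 Nod2-/- male BALB/c mice, 1 library per mouse. All 13 mice had received DMBA, the carcinogen dimethylbenz[a]anthracene, on the skin as pups, were then kept on high-fat diet, and are labelled as 30 weeks old with cancer. The label is the same for both genotypes, but the paper reports liver tumors in a smaller share of WT than of Nod2-/- males so treated. The part of tumors in the results was not tested. Nod2 codes for an intracellular sensor of bacterial peptidoglycan. The WT and Nod2-/- lines were bred separately in the same room and were not littermates, so genotype and line cannot be told apart. Mice on chow or without DMBA are not analysed here.

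Hepatocytes export triglyceride in very low density lipoprotein (VLDL), a particle built on a single copy of apolipoprotein B. The product of Mttp, the microsomal triglyceride transfer protein, loads lipid onto apolipoprotein B while it is being made, and without this step the protein is degraded. Apolipoproteins of the A, C and E classes are small and exchange between particles: Apoa1 and Apoa2 are the main proteins of high density lipoprotein, Apoc2 activates lipoprotein lipase, Apoc3 and Apoc1 slow the clearance of triglyceride-rich particles, Apoa5 speeds it, and Apoe is the ligand for their uptake. Apoa4 is made mainly in the intestine, and the mouse liver makes it too, more so when loaded with fat.

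Between 14886273 and 20579984 reads were counted on genes in WT libraries and between 13824780 and 19391431 in Nod2-/- libraries. Values are given as CPM, counts scaled to the library size after edgeR's TMM normalization. Nod2 itself had 0 to 4 counts in WT and 1 to 6 counts in Nod2-/- libraries, too few to check the genotype labels. All 12 hepatocyte markers examined were expressed, with sums of 84573 to 121321 CPM in WT and 91515 to 196936 CPM in Nod2-/- mice. Alb gave the most to these sums, with 51830 to 79094 CPM in WT and 54070 to 127896 CPM in Nod2-/- mice. Of the 12 genes 9 were higher in Nod2-/- mice, with 0 past 5% FDR. Sums of 10 liver tumor markers ran from 43.2 to 564 CPM in WT (highest in WT replicate 3) and from 179 to 829.5 CPM in Nod2-/- mice (highest in Nod2-/- replicate 4). Of the 9 tested genes 8 were higher in Nod2-/- mice. By edgeR 1 passed 5% FDR, as did 1.16% of all genes tested. Igf2 of that list had at most 3 counts in every library. Sums of 12 macrophage markers ran from 248 to 520 CPM in WT and from 326 to 873 CPM in Nod2-/- mice, with 10 of 12 genes higher. Of 10 neutrophil markers 4 were tested, all higher in Nod2-/- mice, with sums of 4.17 to 9.53 CPM in WT and 6.06 to 1001 CPM in Nod2-/- mice, the last in Nod2-/- replicate 7. Lung epithelium markers, 5 of 8 tested and 1 higher in Nod2-/- mice, summed to 14.03 to 191 CPM in WT and 2.55 to 31.7 CPM in Nod2-/- mice. The part of these shifts in the results was not tested. For the cell types of the liver, fewer cells of a type and less RNA per cell cannot be told apart in whole tissue. The source of the lung epithelium RNA in these liver libraries was not tested. WT replicate 3 and Nod2-/- replicate 7 stood apart from their groups in an earlier pass over these data. Values without them are given where the call of any of the 10 genes changed. For the pathway genes only the calls are given.

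None of the 10 genes passed 5% FDR between the genotypes by edgeR's quasi-likelihood test, which called 1.16% of all genes tested (0.65% as higher and 0.509% as lower in Nod2-/- mice, or 88 and 69 genes). At an unadjusted p under 0.05, Apoa4 and Apoa1 were higher and Mttp was lower in Nod2-/- mice, 3 of 10 genes against 23.1% of all genes tested (12.9% higher and 10.2% lower). DESeq2, which called 7.26% of its genes (3.81% higher and 3.45% lower), called Mttp as lower, and limma's voom with quality weights, which called 6.22% (3.83% higher and 2.39% lower), called Apoa4 as higher. Without WT replicate 3 edgeR called 8.49% of genes (5.12% higher and 3.37% lower) and 1 of the 10, Apoa4 as higher (adjusted p = 0.0380). Without both WT replicate 3 and Nod2-/- replicate 7 it called 4.23% (3.04% higher and 1.19% lower) and again Apoa4 (adjusted p = 0.0401). WT replicate 3 had the highest Apoa4 of the WT mice (4673 CPM) and Nod2-/- replicate 7 the lowest of its group (2470 CPM). Leaving these mice out therefore widens the Apoa4 difference by itself. Without any other single mouse edgeR called none of the 10. With 1 surrogate variable edgeR called 5.29% of genes and with the replicate number as a block 0.258%, and 0 of the 10 in both. The median log2 fold change of the 10 genes was -0.13, against 0.016 over all genes tested, and 4 of 10 were positive. The values of the 6 WT and 7 Nod2-/- mice overlapped in each of the 10 genes, and were without overlap in 1.44% of all genes tested (0.753% higher and 0.687% lower).

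**Figure D1:**
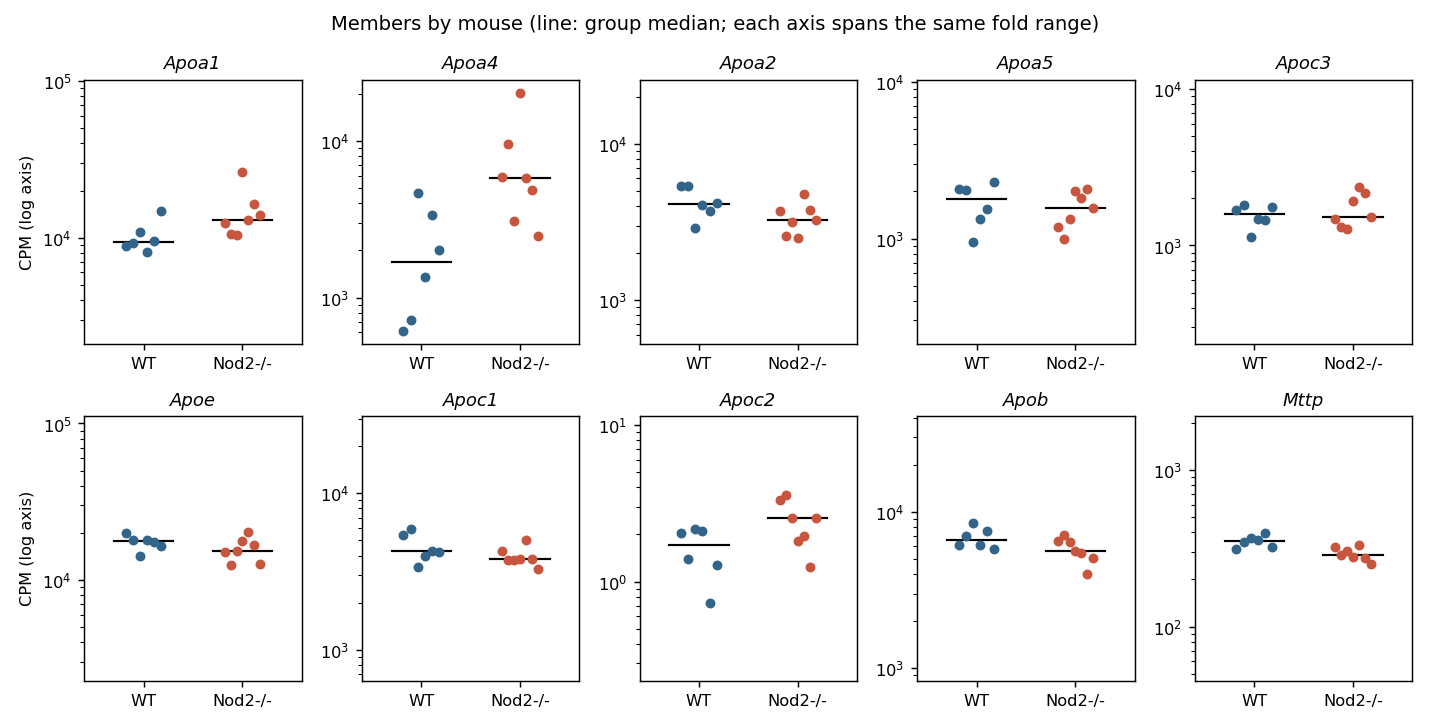
CPM of each of the 10 genes (vertical log axes, all spanning the same fold range) in 6 WT and 7 Nod2-/- mice; each point is 1 mouse and the line is the group median. Apoa4 spread most, from 615 to 20213 CPM, and Mttp least, from 250 to 395 CPM, and the groups overlap in every panel.

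Of the 10 genes, 7 lie in 2 clusters (positions on GRCm38). On chromosome 9, within 43.3 kb, lie Apoa1 (46228580 to 46230466), Apoc3 (46232933 to 46235636, on the opposite strand), Apoa4 (46240696 to 46243459) and Apoa5 (46268633 to 46271919). On chromosome 7, within 27.6 kb and all on the minus strand, lie Apoc2 (19671579 to 19677941), Apoc1 (19689481 to 19692660) and Apoe (19696109 to 19699188), with Apoc4 between Apoc2 and Apoc1. Apoa2 is on chromosome 1 (171225054 to 171226379), Mttp on chromosome 3 (138089854 to 138144968) and Apob on chromosome 12 (7977648 to 8016835).

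**Figure D2:**
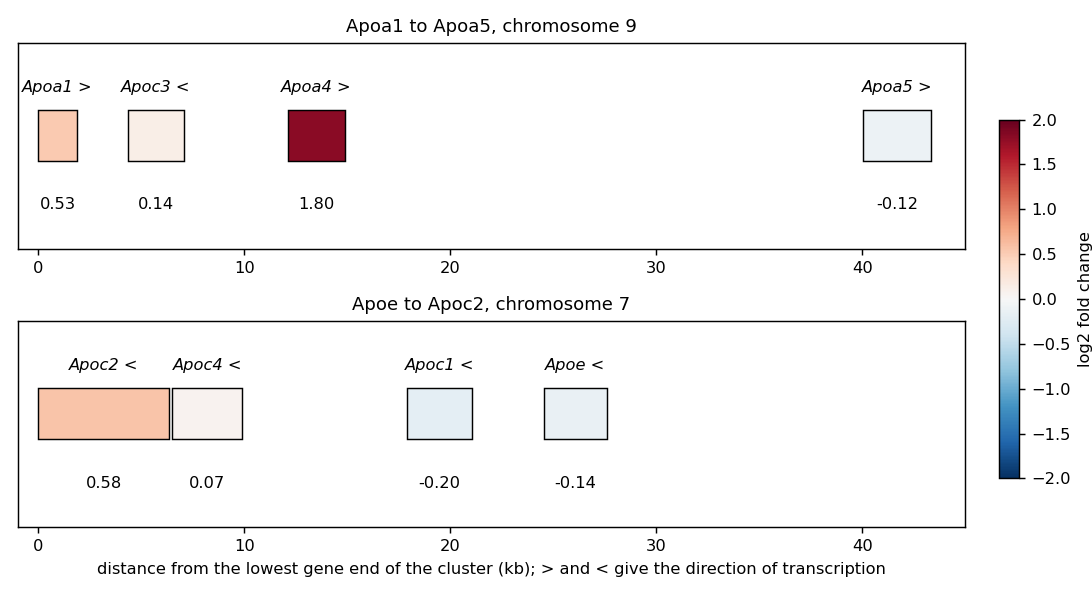
Map of both clusters to scale (horizontal axis, distance in kb), with each gene coloured and labelled by its log2 fold change between Nod2-/- and WT mice and an arrowhead for its direction of transcription. On chromosome 9 the values were 0.53 for Apoa1, 0.14 for Apoc3, 1.80 for Apoa4 and -0.12 for Apoa5, and none of the genes in either cluster passed 5% FDR by edgeR.

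The upstream sequences of 3 of these genes are shown because Apoa4 and Apoa1 had the largest difference and the highest level per length, and Apob is the core of the VLDL particle. They are from RefSeq (GRCm38.p6), plus strand, and end at the base before the earliest annotated start: chr9:46240594-46240695 for Apoa4, chr9:46228380-46228579 for Apoa1 and chr12:7977427-7977647 for Apob. Capitals mark matches to the motifs searched on both strands, which were TATAAA of core promoters, the nuclear receptor site AGGTCA, CAAAGTNCA for HNF4 and the cyclic AMP response element TGACGTCA.
Apoa4: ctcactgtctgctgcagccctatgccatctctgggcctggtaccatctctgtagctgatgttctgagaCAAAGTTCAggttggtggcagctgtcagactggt
Apoa1: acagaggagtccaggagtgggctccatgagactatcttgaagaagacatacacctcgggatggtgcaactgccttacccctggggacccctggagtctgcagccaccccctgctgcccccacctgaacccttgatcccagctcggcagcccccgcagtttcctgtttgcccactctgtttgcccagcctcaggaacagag
Apob: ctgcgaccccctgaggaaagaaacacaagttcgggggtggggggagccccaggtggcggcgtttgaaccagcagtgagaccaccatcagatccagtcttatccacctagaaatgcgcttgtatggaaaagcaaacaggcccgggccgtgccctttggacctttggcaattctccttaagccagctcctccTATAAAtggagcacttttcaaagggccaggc

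The capitals in the Apoa4 sequence are the HNF4 motif, CAAAGTTCA, with its first base at position -182 from the RefSeq start. HNF4, a nuclear receptor that keeps hepatocytes differentiated, is a known activator of apolipoprotein genes. This motif was found in 1.41% of 32851 mouse promoter windows of 250 bases before to 50 after a start. Apob held TATAAA at position -60 from its RefSeq start, a motif found in 13.6% of windows. For both genes the RefSeq start (46240844 for Apoa4 and 7977677 for Apob) lies downstream of the earliest annotated start, before which the printed sequence ends. Each motif therefore lies nearer to the end of the sequence shown than its position says. Apoa1 held no match to any of the 4 motifs in its window. Windows were given for 8 of the 10 genes, all but Apoc1 and Apoc3. Among the others, Apoc2 and Apoa2 held AGGTCA on one of the strands (16.3% of windows), Apoa2, Apoa5 and Apoe held TATAAA, and the cyclic AMP response element (1.79% of windows) was found in 0 of the 8 genes. Some genes had more than 1 RefSeq start and window, while the percentages are per window. AGGTCA of Apoa2 was only in the window of a start far upstream (171221564). TATAAA of Apoe was only in that of a start inside the gene (19698621). A match describes the letters only and no binding was measured.

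Levels were compared between genes as CPM per kilobase of exon, over all 13 mice. Apoa1 stood highest, with a median of 8843, and ranked 3 among 13536 genes with a known exon length. Apoe (7771, rank 6), Apoa2 (6926, rank 9) and Apoc1 (5309, rank 11) followed. Then came Apoa4 (1868, rank 25), Apoc3 (1508, rank 32), Apoa5 (619, rank 77) and Apob (442, rank 107). Mttp, which codes for a lipid transfer protein inside the cell and not a plasma protein, stood at 51.9 (rank 859), and Apoc2 at 2.51 (rank 7575). The Apoc2 level and its place in this order are uncertain, since 79.5% of its exonic bases also belong to another gene model on the same strand, as described below. Neighbours in this order that kept it in all 13 mice were Apoc3 above Apoa5, Apob above Mttp and Mttp above Apoc2. Apoa1 exceeded Apoe in 9 of 13 mice, of which 2 were WT and 7 were Nod2-/-, Apoe exceeded Apoa2 in 9, Apoa2 exceeded Apoc1 in 11 and Apoa4 exceeded Apoc3 in 8 (2 WT and 6 Nod2-/-), so these neighbours were not separated by more than their spread. In WT mice alone Apoa4 ranked 53, and in Nod2-/- mice alone 19. With the longest transcript as the length, 3 of these neighbours changed places: Apoe ranked 2 and Apoa1 3, Apoc1 9 and Apoa2 10, and Apoc3 27 and Apoa4 31.

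**Figure D3:**
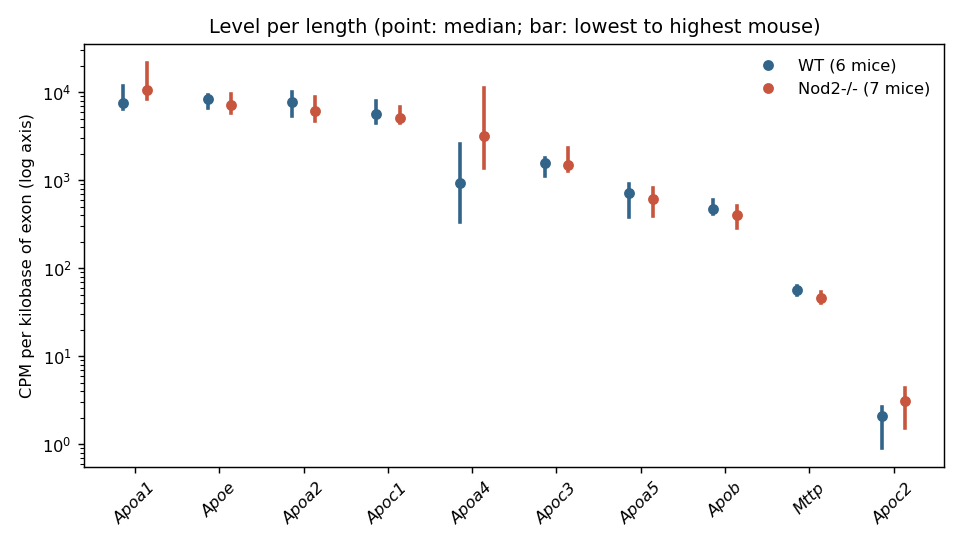
Level per length of the 10 genes (vertical log axis, CPM per kilobase of exon), in order of the median over 13 mice; points are group medians and bars run from the lowest to the highest mouse. The order spans from 8843 for Apoa1 to 2.51 for Apoc2, and the bar of Apoa4 is the longest in both groups. The Apoc2 level is uncertain, since most of its exonic bases also belong to another gene model.

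Together the 10 genes took 4.55 to 5.10% of all counts in WT libraries (mean 4.81% ± 0.23, SD, n = 6) and 4.37 to 7.54% in Nod2-/- libraries (mean 5.49% ± 1.02, SD, n = 7). Nod2-/- replicate 4 was the highest, with 7.54%, of which Apoa1 made up 2.48% and Apoa4 1.90% of all counts.

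Apoa4 was the gene with the widest spread. Its level was 615 to 4673 CPM in WT mice, with a median of 1691, and 2470 to 20213 CPM in Nod2-/- mice, with a median of 5805. All 7 Nod2-/- mice lay above the WT median and 5 above the highest WT mouse, WT replicate 3, while 4 of 6 WT mice lay below the lowest Nod2-/- mouse, so the groups overlapped through WT replicates 3 and 5 and Nod2-/- replicates 3 and 7. The fitted level was 3.48-fold higher in Nod2-/- mice (95% interval 1.51 to 8.01, log2 fold change 1.80, standard error 0.56), with an adjusted p = 0.0929 by edgeR's test. A two-sided exact permutation test over the 1716 splits of 13 mice gave p = 0.0128, where the smallest possible value was 0.000583. The log2 fold change ran from 1.31 without Nod2-/- replicate 4 to 2.18 without WT replicate 3. The mice with the highest Apoa4 in each group were WT replicate 3 (4673 CPM) and Nod2-/- replicate 4 (20213 CPM). They also had the highest sums of the liver tumor markers, 564 and 829.5 CPM. Nod2-/- replicate 4 had the highest sum of hepatocyte markers, 196936 CPM, to which Alb gave the most. The part of these markers in the result was not tested. Of 10 markers of small intestine epithelium, the main source of Apoa4, Alpi, Sis, Lct, Cdx1, Cdx2 and Muc2 had at most 3 counts in every library, and the sums of 204 to 345 CPM over the list, to which Fabp2 and Cdhr5 gave the most, overlapped between the groups. Of this list 3 genes were tested, 2 of them higher in Nod2-/- mice and 0 past 5% FDR by edgeR. Slc5a1, the sodium-glucose cotransporter of the same list, was at 0.727 to 1.98 CPM in WT and 2.13 to 6.19 CPM in Nod2-/- mice. The groups did not overlap, as in 0.753% of all genes tested in this direction. The log2 fold change was 1.39 (edgeR adjusted p = 0.0526, DESeq2 adjusted p = 0.00275), and DESeq2 called 3.81% of its genes as higher. The part of Slc5a1 in the result was not tested.

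Apoa1, next but one to Apoa4 in the chromosome 9 cluster, differed less. Its level was 8070 to 14703 CPM in WT mice (median 9366) and 10349 to 26416 CPM in Nod2-/- mice (median 13059). All 7 Nod2-/- mice lay above the WT median, and 2 lay above the highest WT mouse, WT replicate 6. The level was 1.44-fold higher (95% interval 1.02 to 2.04, log2 fold change 0.53, standard error 0.23, edgeR adjusted p = 0.198), with p = 0.0443 in the exact permutation test. Without Nod2-/- replicate 4 the log2 fold change was 0.32. The ratio of Apoa4 to Apoa1 within a library does not depend on library scaling. Apoa4 stood at 6.90 to 42.8% of the Apoa1 CPM in WT mice (median 15.3%) and at 17.8 to 90.9% in Nod2-/- mice (median 44.5%), with 4 of 7 Nod2-/- mice above every WT mouse. The log2 ratio was 1.36 higher in Nod2-/- mice (two-sided exact permutation test, p = 0.0309, and 0.0927 after Benjamini-Hochberg adjustment over 3 ratios), so the ratio was not past the threshold after adjustment.

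The other genes of the chromosome 9 cluster lay nearer to equality. Apoc3, whose product inhibits lipolysis and particle uptake, was at 1141 to 1818 CPM in WT mice (median 1578) and 1276 to 2350 CPM in Nod2-/- mice (median 1529). Its fold was 1.10 (95% interval 0.854 to 1.42, edgeR adjusted p = 0.649), and 3 Nod2-/- mice lay above and 0 below the WT range. Apoa5, whose product promotes lipolysis, was at 952 to 2297 CPM in WT mice (median 1791) and 994 to 2082 CPM in Nod2-/- mice (median 1562). The Nod2-/- values lay within the WT range in all 7 mice, with a fold of 0.922 (95% interval 0.662 to 1.28, edgeR adjusted p = 0.783).

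Apoa2, the second protein of high density lipoprotein, lies apart from both clusters. It was at 2899 to 5364 CPM in WT mice (median 4133) and 2501 to 4761 CPM in Nod2-/- mice (median 3249). Of the Nod2-/- mice, 2 lay below the lowest WT mouse, WT replicate 3, and 2 WT mice lay above all Nod2-/- mice. The fold was 0.795 (95% interval 0.604 to 1.05, log2 fold change -0.33, standard error 0.19, edgeR adjusted p = 0.298), opposite in sign to Apoa1.

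In the chromosome 7 cluster, Apoe was at 14275 to 19875 CPM in WT mice (median 17725) and 12386 to 20261 CPM in Nod2-/- mice (median 15407). The groups overlapped, with 1 Nod2-/- mouse above and 2 below the WT range, and the fold was 0.905 (95% interval 0.717 to 1.14, edgeR adjusted p = 0.610). Apoc1 was at 3368 to 5951 CPM in WT mice (median 4250) and 3293 to 5043 CPM in Nod2-/- mice (median 3783). Its fold was 0.872 (95% interval 0.693 to 1.10, edgeR adjusted p = 0.456). Apoc4, the neighbour of Apoc2 and not one of the 10 genes, had medians of 846 CPM in WT and 847 CPM in Nod2-/- mice.

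Apoc2, the activator of lipoprotein lipase, was counted at 0.733 to 2.18 CPM in WT mice (median 1.71) and 1.24 to 3.59 CPM in Nod2-/- mice (median 2.54), which is 11 to 60 counts per library. The groups overlapped, with 4 of 7 Nod2-/- mice above the highest WT mouse. The fold was 1.49 (95% interval 0.977 to 2.28, edgeR adjusted p = 0.241; exact permutation test, p = 0.0874). This level was far below those of its neighbours. Of the 813 exonic bases of Apoc2, 646 (79.5%) also belong to Gm44805, a gene model on the same strand that runs from Apoc2 into Apoc4 (chromosome 7, 19671584 to 19681423), and 167 do not. Gm44805 itself was counted at 1.02 to 2.87 CPM. How reads on shared bases were counted is not given in the sources used here, so the Apoc2 level is uncertain and the effect of the overlap was not tested. Of the Apoc4 exons 4.69% overlap the same model. The ratio of Apoc2 to Apoe did not pass the threshold either, with a log2 ratio 0.74 higher in Nod2-/- mice (exact permutation test, p = 0.0758, and 0.114 after adjustment over 3 ratios).

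Apob and Mttp, the genes of the protein core of VLDL and of the transfer protein that lipidates it, were both lower in the mean in Nod2-/- mice. Apob was at 5748 to 8416 CPM in WT mice (median 6602) and 4004 to 7121 CPM in Nod2-/- mice (median 5581). Of the Nod2-/- mice, 4 lay below every WT mouse and 1 above the WT median, and 2 WT mice lay above every Nod2-/- mouse. The fold was 0.837 (95% interval 0.663 to 1.06, log2 fold change -0.26, standard error 0.16, edgeR adjusted p = 0.336; exact permutation test, p = 0.0810).

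Mttp had the narrowest spread of the 10 genes. It was at 311 to 395 CPM in WT mice (median 352) and 250 to 334 CPM in Nod2-/- mice (median 289), with coefficients of variation of 8.67% and 9.92%. All 6 WT mice lay above the Nod2-/- median and 5 of 7 Nod2-/- mice below the lowest WT mouse. Its fold was 0.840 (95% interval 0.732 to 0.963, log2 fold change -0.25, standard error 0.093), with an adjusted p = 0.132 by edgeR and p = 0.00758 in the two-sided exact permutation test. DESeq2 gave a log2 fold change of -0.27 with an adjusted p = 0.0334 for Mttp. With no TMM factors the edgeR adjusted p of Mttp was 0.263, and the exact permutation test, which is not adjusted over the 10 genes, gave p = 0.0571. Mttp stood at 4.36 to 5.78% of the Apob CPM in WT mice (median 5.14%) and at 4.05 to 6.88% in Nod2-/- mice (median 4.97%), and the log2 ratio differed by 0.012 (exact permutation test, p = 0.923).

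**Figure D4:**
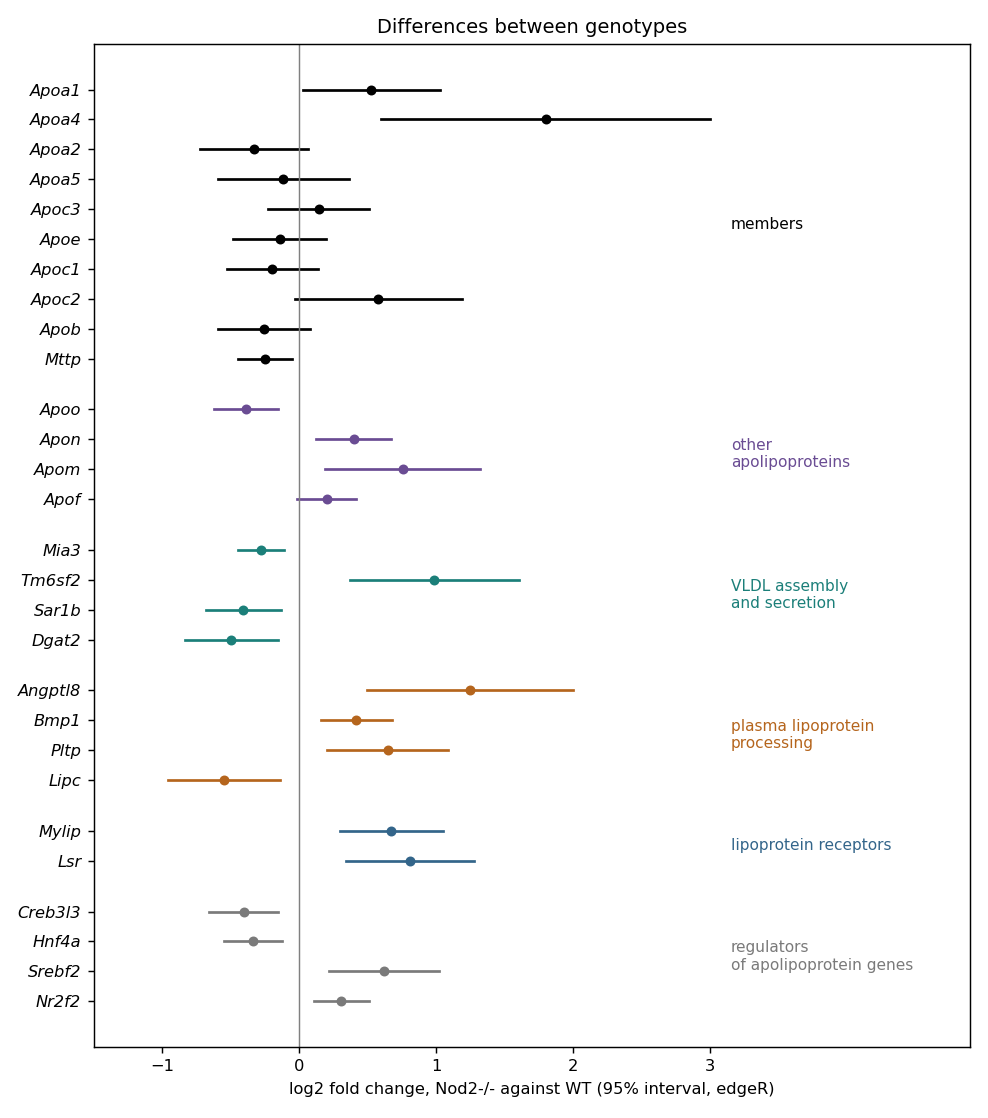
Log2 fold change between Nod2-/- and WT mice (horizontal axis; points are edgeR estimates, bars 95% intervals) for the 10 genes and for the genes named from 5 lists of pathway genes. Among the 10 genes the intervals of Apoa4, Apoa1 and Mttp lie clear of 0, and no gene shown passed 5% FDR by edgeR over all genes tested.

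The genes were then compared from mouse to mouse, as Pearson's r and Spearman's rho of log2 CPM over 13 mice for all 45 pairs. None of the pairs passed 0.05 after Benjamini-Hochberg adjustment by both measures, and 3 did by r alone. The highest r was between Apoa2 and Apoc1 (r = 0.83, permutation p = 0.00053, adjusted 0.0135; rho = 0.77, permutation p = 0.00301, adjusted 0.0659). It was 0.81 with the group means removed and 0.93 without the 2 mice farthest from the median of Apoa2. Apoa5 and Apoc3, which lie in the same cluster, had r = 0.82 (permutation p = 0.00060, adjusted 0.0135) and rho = 0.79 (permutation p = 0.00211, adjusted 0.0659), with r = 0.87 after removal of the group means and 0.71 without the 2 farthest mice. Apoa2 and Apoa4 ran in opposite directions, with r = -0.78 (permutation p = 0.00175, adjusted 0.0263) and rho = -0.69 (permutation p = 0.0107, adjusted 0.0685), r = -0.71 with the group means removed and -0.62 without the 2 farthest mice. Apoa4 and Apoc3, between which no other gene of the cluster lies, had r = 0.019 (permutation p = 0.951, adjusted 0.951) and rho = 0.044 (permutation p = 0.893, adjusted 0.913). Apoa1 and Apoa4 had r = 0.68 (permutation p = 0.00968, adjusted 0.0545) and rho = 0.60 (permutation p = 0.0346, adjusted 0.144). Their r was 0.51 with the group means removed and 0.45 without Nod2-/- replicates 4 and 6. Apob and Mttp had r = 0.69 (permutation p = 0.00862, adjusted 0.0545) and rho = 0.64 (permutation p = 0.0200, adjusted 0.113), with r = 0.55 after removal of the group means. Apob and Apoc3 had r = -0.71 (permutation p = 0.00683, adjusted 0.0545) and rho = -0.73 (permutation p = 0.00586, adjusted 0.0659). Their r was -0.71 with the group means removed and -0.47 without the 2 mice farthest from the median of Apob. With Apoa2, Apoc1, Apoe, Apoc3 and Apoa5, Apoa4 had an r of -0.96 to -0.67 within the 6 WT mice. Within the 7 Nod2-/- mice r was -0.48 with Apoa2 and 0.12 to 0.29 with the other 4, and this difference between the groups was not tested. In all, 21 of the 45 pairs had an r above 0.

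**Figure D5:**
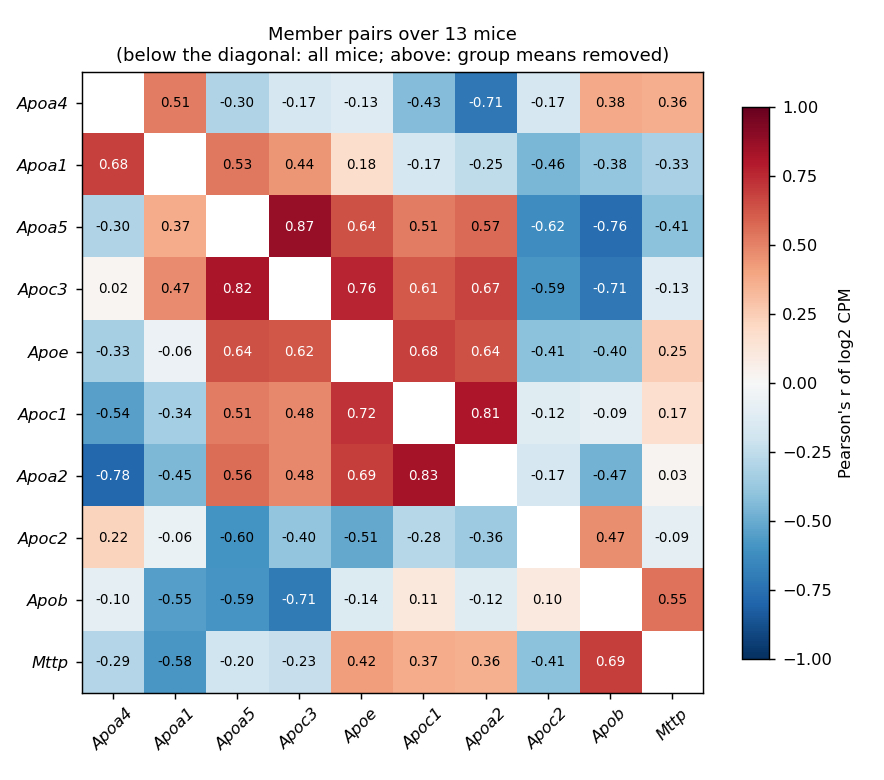
Pearson's r of log2 CPM for every pair of the 10 genes over 13 mice (colour scale from -1 to 1), below the diagonal over all mice and above it after removal of the group means. Apoa2, Apoc1, Apoe, Apoc3 and Apoa5 form a block of positive values, 0.48 to 0.83 below the diagonal, and Apoa4 is negative with each of these but Apoc3 (0.02).

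Of the other 13535 genes tested, those with a pattern most like that of Apoa4 over the 13 mice were Gm10680 (r = 0.97, rho = 0.94), Chst14 (r = 0.96, rho = 0.92), which codes for a dermatan sulfotransferase, and Chrnb1 (r = 0.95, rho = 0.93), a subunit of the muscle acetylcholine receptor. Gm10680 is annotated opposite to Apoa4 (chromosome 9, 46242621 to 46243529), and genes on the other strand overlap 69.8% of the Apoa4 exons. It was counted at 0.397 to 14.3 CPM, which was 0.0485 to 0.0929% of the Apoa4 CPM in WT and 0.0447 to 0.0708% in Nod2-/- mice. The libraries keep strand, but whether the counting used it is not given in the sources used here, and whether reads of Apoa4 were counted for Gm10680 was not tested. Most like Apob were Gm4951 (r = 0.97, rho = 0.90), an unnamed gene (ENSMUSG00000109836.1; r = 0.96, rho = 0.91) and Kif13a (r = 0.95, rho = 0.92), a motor of vesicle transport. These correlations describe the 13 libraries and carry no test.

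The other genes of the pathway were taken from 5 lists written by name. None of the 84 genes tested in these lists passed 5% FDR by edgeR, which called 1.16% of all genes tested. DESeq2 called 10 higher and 9 lower (3.81% and 3.45% of all its genes). Among the genes named below, it called Apon, Tm6sf2, Angptl8, Bmp1, Pltp, Mylip, Lsr and Srebf2 as higher. As lower it called Apoo, Mia3, Sar1b, Dgat2, Creb3l3 and Hnf4a. The adjusted p-values printed for the named genes are those of edgeR with all mice. Voom with quality weights called 8 higher and 4 lower (3.83% and 2.39% of all genes), and edgeR without WT replicate 3 called 10 higher and 3 lower (5.12% and 3.37%). Of the genes named below, this last fit called Tm6sf2, Angptl8, Pltp, Mylip and Nr2f2 as higher and Apoo, Sar1b and Creb3l3 as lower. The same shares stand beside the DESeq2 and voom counts of each list below. The groups overlapped in every one of the 84 genes, and were without overlap in 1.44% of all genes tested. Each list was described by the number at an unadjusted p under 0.05 by edgeR, a mark that 12.9% of all genes tested reached as higher and 10.2% as lower, and by its named genes, taken from the 4 of smallest p.

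Of 16 other apolipoproteins 11 were tested, 2 higher and 1 lower at an unadjusted p under 0.05, with a median log2 fold change of -0.015. DESeq2 called 1 higher and 1 lower, and voom 1 higher and 1 lower. Apom, the carrier of sphingosine 1-phosphate on high density lipoprotein, had medians of 158 CPM in WT and 278 CPM in Nod2-/- mice (log2 fold change 0.75 with a standard error of 0.27, adjusted p = 0.122). Apon had medians of 479 and 630 CPM (0.40, standard error 0.13, adjusted p = 0.0990), with 6 of 7 Nod2-/- mice above the WT range. Apoo, whose product is a part of the mitochondrial cristae complex, had medians of 18.9 and 14.1 CPM (-0.39, standard error 0.11, adjusted p = 0.0723). Apof had medians of 856 and 948 CPM (0.20, standard error 0.10, adjusted p = 0.249).

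All 24 genes of VLDL assembly and secretion were tested, 1 higher and 7 lower at an unadjusted p under 0.05, with a median log2 fold change of -0.032. DESeq2 called 1 higher and 6 lower, and voom 1 higher and 1 lower. Mia3, which helps bulky cargo leave the endoplasmic reticulum, had medians of 154 CPM in WT and 128 CPM in Nod2-/- mice (log2 fold change -0.28 with a standard error of 0.079, adjusted p = 0.0723), with 6 of 7 Nod2-/- mice below the WT range. Sar1b, the GTPase that starts the COPII coat, had medians of 252 and 187 CPM (-0.41, standard error 0.13, adjusted p = 0.0932). Dgat2, which makes triglyceride for VLDL, had medians of 728 and 492.8 CPM (-0.50, standard error 0.16, adjusted p = 0.0978). Tm6sf2, needed for the lipidation of VLDL, had medians of 10.5 and 19.5 CPM and was the 1 higher gene (0.99, standard error 0.29, adjusted p = 0.0805).

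Of 17 genes of plasma lipoprotein processing, all tested, 4 were higher and 5 lower at an unadjusted p under 0.05, with a median log2 fold change of -0.094. DESeq2 called 4 higher and 0 lower, and voom 3 higher and 1 lower. Angptl8, an inhibitor of lipoprotein lipase, had medians of 23.1 CPM in WT and 56.6 CPM in Nod2-/- mice (log2 fold change 1.25 with a standard error of 0.35, adjusted p = 0.0744). Bmp1, a protease that also trims the Apoa1 precursor, had medians of 102 and 142 CPM (0.42, standard error 0.12, adjusted p = 0.0807). Pltp, the phospholipid transfer protein, had medians of 9.11 and 14.6 CPM (0.64, standard error 0.21, adjusted p = 0.0986). Lipc, hepatic lipase, had medians of 163 and 120 CPM (-0.55, standard error 0.19, adjusted p = 0.116).

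Of 11 genes in the list of lipoprotein receptors 10 were tested, 4 higher and 0 lower at an unadjusted p under 0.05, with a median log2 fold change of 0.27. DESeq2 called 3 higher and 0 lower, and voom 2 higher and 0 lower. The list also holds genes that act on receptors, among them Mylip, a ubiquitin ligase that marks lipoprotein receptors for degradation. Mylip had medians of 7.32 CPM in WT and 10.6 CPM in Nod2-/- mice (log2 fold change 0.67 with a standard error of 0.18, adjusted p = 0.0656), with 6 of 7 Nod2-/- mice above the WT range. Lsr, a receptor for triglyceride-rich particles, had medians of 114 and 209 CPM (0.81, standard error 0.22, adjusted p = 0.0694).

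Of 23 regulators of apolipoprotein genes 22 were tested, 3 higher and 6 lower at an unadjusted p under 0.05, with a median log2 fold change of -0.053. DESeq2 called 1 higher and 2 lower, and voom 1 higher and 1 lower. Hnf4a, whose motif is the one marked upstream of Apoa4, had medians of 665 CPM in WT and 537 CPM in Nod2-/- mice (log2 fold change -0.34 with a standard error of 0.10, adjusted p = 0.0805), with 6 of 7 Nod2-/- mice below the WT range. Creb3l3, known as an activator of Apoa4 and other apolipoprotein genes in fasting, had medians of 574 and 443 CPM (-0.41, standard error 0.12, adjusted p = 0.0774). Srebf2, the master regulator of sterol synthesis, had medians of 37.2 and 50.8 CPM (0.62, standard error 0.19, adjusted p = 0.0867). Nr2f2, a nuclear receptor, had medians of 19.7 and 25.05 CPM (0.31, standard error 0.095, adjusted p = 0.0907).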

How the data were processed

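Liver RNA of 6 WT and 7 Nod2-/- mice was sequenced, 1 library per mouse, from stranded polyA libraries. The authors cleaned the reads (Trimmomatic 0.33), aligned them to GRCm38 (TopHat2 2.1.1) and deposited whole-number counts for each gene, not normalized. The counting program and its strand setting are not given in the sources used here, so overlapping and antisense genes are uncertain. The 1 entry without a gene ID was left out.

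Counts were analysed here with edgeR 4.0.16 in R 4.3.3 (filterByExpr, TMM, glmQLFit and glmQLFTest, two-sided, no covariate), with Benjamini-Hochberg adjustment over 13545 genes, which held 99.9% of counts. Log2 fold changes are Nod2-/- against WT. Exact permutation tests used log2 CPM with a prior count of 2, and their p-values for single genes were not adjusted. Ratios used a pseudocount of 0.5 counts, and correlations 100000 permutations. Symbols, positions and exon lengths come from GENCODE release 21 of GRCm38, in which 53360 genes were found, and promoters from RefSeq. No pair of libraries within a group was as alike as sampling noise allows (in 36 pairs, chi-square divided by its degrees of freedom was 11.4 to 179). The fits were tested on simulated data.

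The genes, lists and tests were chosen with earlier results of these data known. Named are the 10 genes, per pathway list those past 5% FDR and the 4 of smallest p, genes of the same clusters, and the 3 genes most like Apoa4 and Apob. Some genes that this rule names are not reported here. Alternatives were DESeq2 1.42.0, limma 3.58.1 voom with quality weights, other scalings and filters, a replicate block, 1 surrogate variable from sva 3.50.0, robust dispersions, and fits without single mice.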

Additional observations from a re-analysis of the deposited data

Results flagged for a closer look

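In 70 groups of values examined (the 10 genes, the named pathway genes with Apoc4, the 3 ratios and the share of counts, in WT and in Nod2-/- mice), 7 had a mouse that stood far from the others of its group by Dixon's test. Chance gives about 1 in 20 for independent, normally distributed values. Gene levels were examined as CPM and not log2 CPM, and the groups share mice and genes. The 7 are therefore a description and cannot be set against that rate. Nod2-/- replicate 4 was the outlying mouse in 4 of them: its Apoa1 was 26416 CPM with the next mouse at 16473, its Apoa4 was 20213 CPM with the next at 9550, its Apom was 621 CPM with the next at 341, and the 10 genes took 7.54% of its counts with the next at 5.73%. Pltp in Nod2-/- replicate 7 was 26.4 CPM, with the next mouse at 16.7. Mylip in WT replicate 4 was 5.29 CPM, below the next lowest at 7.20. Creb3l3 in WT replicate 3 was 441 CPM, below the next lowest at 568.2.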

How the results depend on the processing

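The number of genes called depended on the fit. Against 88 higher and 69 lower genes, DESeq2 called 605 and 549, voom with quality weights 519 and 324, edgeR with 1 surrogate variable 389 and 327, and edgeR without WT replicate 3 and Nod2-/- replicate 7 together 408 and 159. Without normalization factors edgeR called 33 lower genes, and 73.4% of its calls were higher against 56.1%. Leaving out 1 mouse gave 20 to 697 higher and 20 to 459 lower genes: 697 and 459 without WT replicate 3, 20 to 53 and 20 to 36 without WT replicates 1, 2, 4 or 5 or Nod2-/- replicates 4, 6 or 7, and 74 to 116 and 60 to 107 without any of the others. Of the 10 genes, 1 was called higher by voom and without both mice, 1 lower by DESeq2, and 0 to 1 higher and 0 lower without single mice. Pathway genes called higher were 10 by DESeq2, 8 by voom, 5 with the surrogate variable and 5 without both mice, and called lower 9, 4, 6 and 1, with 0 to 10 higher and 0 to 3 lower without single mice.

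Replicate numbers did not pair the mice (correlations of same-numbered deviations -0.302 to 0.304). With the replicate block edgeR called 17 higher and 18 lower genes and 0 of the 10, and the Apoa4 to Apoa1 log2 ratio was 1.57 (exact p = 0.0938). Without single mice this ratio ran from 1.11 to 1.64, that of Apoc2 to Apoe from 0.53 to 0.90, and that of Mttp to Apob from -0.056 to 0.072. The log2 fold change of Apoa5 turned to 0.040 with 1 surrogate variable, and its difference in mean log2 CPM ran from -0.258 to 0.000185 without single mice, the last without Nod2-/- replicate 2. The 9 other genes kept their sign in all 24 alternatives. The cause of these shifts was not tested. With 6 and 7 mice, intervals as wide as that of Apoa5 (0.662 to 1.28) leave modest differences undetected.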
